A study of Homo sapiens with 60 samples.

Results

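The Angelicae dose series was made of the 9 HT29 libraries whose titles name a water extract of Angelicae Gigantis Radix, the root of Angelica gigas, at 20, 100 or 500 µg/mL, with 3 libraries at each dose, of 60 libraries in all. HT29 is an established human colorectal adenocarcinoma line, and all cells were harvested after 24 h. The dried root had been extracted in hot water under reflux and the extract freeze-dried, so each dose is a weight of whole extract and not of a named compound. The other libraries held 5 further herbal extracts at the same 3 doses (Paeoniae with 2 libraries per dose; Poria, Glycyrrhizae, Atractylodis and Ginseng with 3), the phosphoinositide 3-kinase inhibitors wortmannin and LY294002 at 10 µM, and a DMSO vehicle, with 3 libraries each. The question was which genes followed the dose within the extract, so no vehicle library entered a dose comparison. Nothing in the labels says that the 3 libraries of a dose came from separate cultures, and p-values therefore measure the spread between libraries, which may be technical.

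Cells meet reactive plant and dietary compounds with a small set of transcription programmes. NRF2 (gene NFE2L2) is held down by KEAP1, whose reactive cysteines are modified by electrophiles. Freed NRF2 enters the nucleus and binds antioxidant response elements, which raises genes for glutathione synthesis, thioredoxin recycling, NADPH supply and the reduction of carbonyls and quinones. The aryl hydrocarbon receptor (AHR) binds planar aromatic ligands and raises CYP1A1, CYP1B1 and its own repressor AHRR. Several detoxification genes, NQO1 among them, are targets of both factors. Aldo-keto reductases, which reduce carbonyls, are among the genes that NRF2 is known to raise in human cells.

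The promoters below are shown for ME1, a member of the NRF2 list whose level followed the dose, and for GCLM, a textbook NRF2 target that stood among the 20 genes with the smallest p. The pair was chosen because both windows hold the motif; those of NQO1 and AKR1C2, also NRF2 list members among the 20, hold none. Each run is the 250 bases before the RefSeq transcription start (GRCh38.p14), written 5′ to 3′ on the gene's own strand, and the capitals mark the antioxidant response element core TGACNNNGC, searched on both strands.
ME1: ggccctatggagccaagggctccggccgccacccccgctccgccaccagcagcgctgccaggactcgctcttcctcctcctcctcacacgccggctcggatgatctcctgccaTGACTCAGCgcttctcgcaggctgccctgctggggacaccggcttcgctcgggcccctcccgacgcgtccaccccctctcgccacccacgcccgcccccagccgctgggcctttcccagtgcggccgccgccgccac
GCLM: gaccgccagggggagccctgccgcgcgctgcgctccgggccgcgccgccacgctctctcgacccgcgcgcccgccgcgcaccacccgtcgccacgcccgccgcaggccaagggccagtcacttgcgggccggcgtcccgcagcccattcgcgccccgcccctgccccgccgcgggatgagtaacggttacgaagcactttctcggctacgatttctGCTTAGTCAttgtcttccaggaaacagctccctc
The ME1 stretch lies at chr6:83431052-83431301 and the GCLM stretch at chr1:93909431-93909680, both on the minus strand. The ME1 match began 137 bases before the start and overlapped TGACTCA, the AP-1 motif. The GCLM match lay on the opposite strand, 34 bases before the start, where it reads TGACTAAGC. A window of 250 bases before to 50 bases after the start held the core in 13.3% of the 35116 RefSeq promoters, and TGACTCA in 4.95%. Of the 28 NRF2 list members, 19 had a promoter in the table, and 6 of these 19 held the core in at least 1 promoter. Some of them have more than 1 promoter, so this count of genes is not comparable with the 13.3% of promoters. A match describes the letters of the window and says nothing of binding in these cells.

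Over the 25-fold dose range, few genes were called in the main fit, and their differences were small. AKR1B10, which reduces retinaldehyde and other carbonyls, was 30.5% higher at 500 than at 20 µg/mL. ALDH3A1, which oxidises aldehydes to acids, was 29.2% higher, and ME1, the cytosolic malic enzyme that makes NADPH, was 17.2% higher. These 3 genes were called higher with dose among the 16767 tested (0.0179%), and none was called lower. Under several alternatives SELENOW was called lower, as given below. A fit of the 9 libraries with the replicate number as a block called 17 of 15622 genes. The test was edgeR's quasi-likelihood test of the linear trend over log dose with Benjamini-Hochberg adjustment over all genes, called at an adjusted p under 0.05. Because each dose is 5-fold above the next, the trend equals the log2 difference between 500 and 20 µg/mL. An unadjusted p under 0.05 was found for 499 genes (2.98%), 261 of them higher (1.56%) and 238 lower (1.42%), and the median trend of all genes was -0.001 on the log2 scale. In bulk RNA, more cells that express a gene and more RNA of it per cell cannot be told apart.

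AKR1B10 (chr7:134527592-134541408, plus strand, GENCODE 29 on GRCh38) had 105, 98.6 and 96.4 CPM (counts scaled to library size) at 20 µg/mL, 105, 104 and 99.9 CPM at 100 µg/mL, and 135, 133 and 123 CPM at 500 µg/mL. All 3 libraries at the highest dose lay above the other 6, and the libraries at 20 and 100 µg/mL overlapped. Its trend was 0.38 ± 0.05 log2 (SE), with an adjusted p of 6.29e-05 in edgeR's quasi-likelihood test. Means were 99.9 ± 4.21, 103 ± 2.93 and 130.3 ± 6 CPM over the 3 doses (SD, n = 3 each), and the vehicle libraries had 96.6 ± 5.16 CPM (SD, n = 3).

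ALDH3A1 (chr17:19737984-19748943, minus strand) had 27, 25.7 and 25.3 CPM at 20 µg/mL, 27.7, 26.2 and 27.4 CPM at 100 µg/mL, and 33.6, 33.3 and 34.1 CPM at 500 µg/mL. The spread at the highest dose was narrow, at 33.6 ± 0.397 CPM (SD, n = 3), and none of the lower doses' libraries reached it. The trend was 0.37 ± 0.06 log2 (SE; adjusted p = 0.000314, edgeR). The vehicle libraries averaged 28.7 ± 0.714 CPM (SD, n = 3), between the 2 upper doses.

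ME1 (chr6:83210389-83431071, minus strand) had 93.3, 91.7 and 92.9 CPM at 20 µg/mL, 93.3, 95 and 94.8 CPM at 100 µg/mL, and 104, 114 and 107 CPM at 500 µg/mL. Again the highest dose stood above the other 6 libraries, with the lower doses side by side. The trend was 0.23 ± 0.04 log2 (SE; adjusted p = 0.000681, edgeR). ME1 was no longer called without replicate 2 at 500 µg/mL, where its trend was 0.19 with an adjusted p of 0.0629, nor in a fit of the 9 libraries alone (adjusted p = 0.11). In the 9 libraries, the slope over log dose did not call it either (adjusted p = 0.21, edgeR). Nor did 500 against the mean of 100 and 20 µg/mL there (adjusted p = 0.0528, edgeR).

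AKR1C2 (chr10:4987400-5018031, minus strand), a reductase of steroids and other ketones, had 12.4, 11.8 and 11 CPM at 20 µg/mL, 11.3, 11.9 and 9.99 CPM at 100 µg/mL, and 18.9, 15.1 and 16.4 CPM at 500 µg/mL. The highest dose again held the 3 highest libraries, with the widest spread of these 4 genes relative to its mean. Its trend of 0.52 ± 0.11 log2 (SE) was larger than that of AKR1B10 and did not pass the adjusted threshold (adjusted p = 0.0904, edgeR). DESeq2's Wald test did call it (adjusted p = 0.0187). Over the 11 alternatives other than leaving out 1 library, its adjusted p was 3.5e-06 to 0.84. None of the 9 fits that left out 1 Angelicae library called it (lowest adjusted p = 0.0629, edgeR). AKR1C1, AKR1C2 and AKR1C3 are near-identical neighbours on chromosome 10, and the estimated counts can split shared reads between them.

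**Figure D1:**
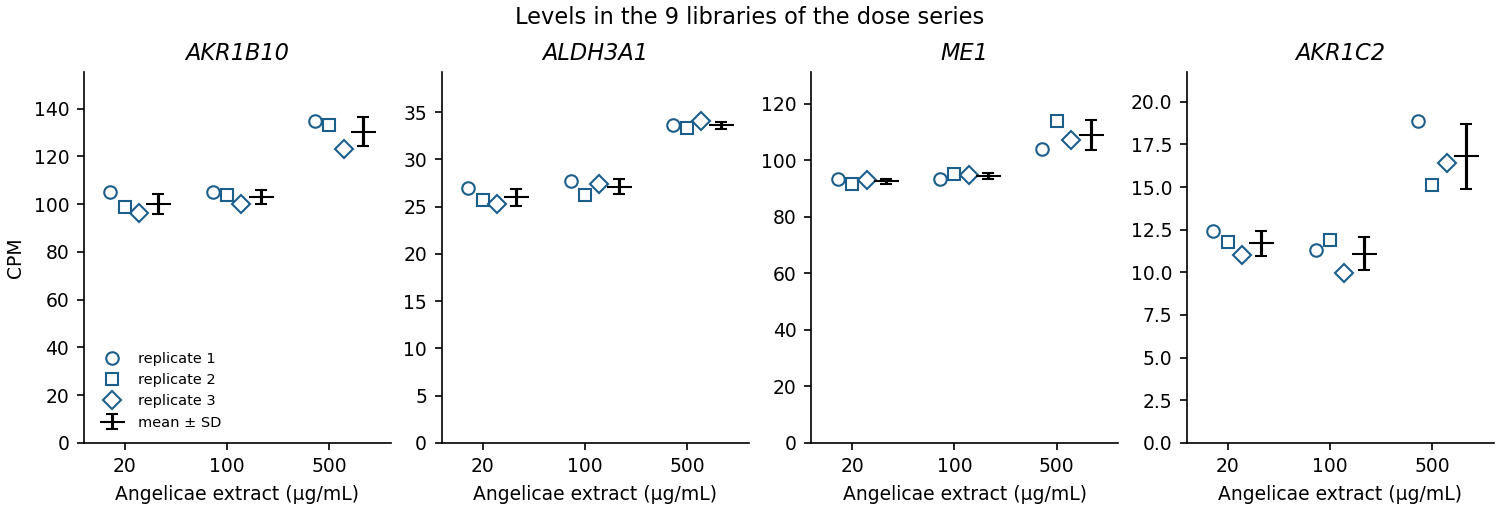
Level in CPM (y axis, from 0) against Angelicae dose (x axis, µg/mL) for AKR1B10, ALDH3A1, ME1 and AKR1C2. Open symbols are the 3 libraries of each dose by replicate number and black bars are the mean ± SD; in each panel the 3 libraries at 500 µg/mL lie above the 6 at 20 and 100 µg/mL.

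The called differences lay between the 2 upper doses. At 500 against 100 µg/mL, 4 genes were higher and none lower (0.0239% of genes tested; 386 genes, 2.3%, at an unadjusted p under 0.05), and these were AKR1B10, ALDH3A1, ME1 and AKR1C2. Their log2 differences were 0.34 ± 0.05 for AKR1B10 (SE; adjusted p = 0.00135), 0.31 ± 0.06 for ALDH3A1, 0.20 ± 0.04 for ME1 and 0.60 ± 0.11 for AKR1C2 (adjusted p = 0.0086 for each of the last 3, edgeR). At 100 against 20 µg/mL, edgeR called 0 genes (321 at an unadjusted p under 0.05, 1.91%) and DESeq2 called 0. The same 4 genes differed there by 0.05 ± 0.05, 0.06 ± 0.06, 0.03 ± 0.04 and -0.09 ± 0.11 log2 (SE). The contrast that asks whether the upper step differs from the lower called no gene in edgeR (304 at an unadjusted p under 0.05, 1.81%) and none in DESeq2, so a bend in the dose response was not shown. AKR1C2 had a curvature of 0.69 ± 0.20 log2 (SE; adjusted p = 1).

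The calls at 500 against 100 µg/mL depended on single libraries. Without replicate 3 at 100 µg/mL none of the 4 genes passed (AKR1B10 then had an adjusted p of 0.0569), and 2 passed without replicate 1 at 500 µg/mL or without replicate 1 or 2 at 100 µg/mL. A fit of the 9 libraries alone called AKR1B10 only (adjusted p = 0.0299). With the replicate number as a block in the 9 libraries, AKR1B10, AKR1C2 and ALDH3A1 passed (adjusted p = 0.000181, 0.0041 and 0.013, edgeR). In that fit ME1 did not pass (adjusted p = 0.0716), and GCLC and AKR1C3 did (adjusted p = 0.00644 for GCLC and 0.00787 for AKR1C3). ENSG00000282883 passed there as well, which made 6 calls in all.

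Beyond the called genes, the 20 with the smallest p were described, 17 of which were not called. Among them 12 had a positive and 8 a negative trend, and 6 belonged to the NRF2 list. UGT1A1, which glucuronidates bilirubin and drugs, averaged 41.1, 43.4 and 47.4 CPM at 20, 100 and 500 µg/mL, and UGT1A6, which glucuronidates phenols, averaged 49.1, 51.1 and 58.7 CPM. These isoforms share their last exons and reads in them cannot be assigned with certainty. UGT1A1 passed without replicate 2 at 20 µg/mL (trend 0.26, adjusted p = 0.045, edgeR). NQO1, the quinone reductase, averaged 490.3, 495 and 557 CPM. TRIM16L, a tripartite-motif family gene, averaged 10.1, 10.3 and 12.3 CPM. AGAP9 averaged 11.6, 13.6 and 13.9 CPM, and it too has near-identical copies that share its reads. In all of these, the 3 libraries at 500 µg/mL lay above the 3 at 20 µg/mL, as they did for 741 genes in all (4.42%).

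Among the negative trends, SELENOW, a small selenoprotein of the cytosol, had 126, 118 and 117 CPM at 20 µg/mL, 112, 112 and 109 CPM at 100 µg/mL, and 104, 96.6 and 99.4 CPM at 500 µg/mL. Here the 3 doses did not overlap, and the lower step (-0.12 ± 0.06 log2, SE) was close to the upper (-0.15 ± 0.06). Its trend of -0.27 ± 0.06 log2 had an adjusted p of 0.08 in edgeR and 0.00754 in DESeq2. Over the 11 alternatives other than leaving out 1 library, the adjusted p was 0.000614 to 0.3. None of the 9 fits that left out 1 Angelicae library called SELENOW (adjusted p = 0.0831 to 0.851, edgeR). Besides DESeq2, edgeR called it lower without the filter and without the vehicle libraries (adjusted p = 0.0366). The replicate block called it in the 60 and the 9 libraries (adjusted p = 0.0435 and 0.00259, edgeR). So did the 9-library slope over log dose (adjusted p = 0.0464, edgeR). ACSS2, which makes cytosolic acetyl-CoA from acetate, averaged 28.8 ± 1.54, 27.6 ± 0.725 and 23.4 ± 1.23 CPM over the doses (SD, n = 3 each; trend -0.30 ± 0.07 log2, SE, adjusted p = 0.17, edgeR). LSS, the lanosterol synthase of cholesterol synthesis, averaged 119, 119 and 108 CPM. ASS1, the urea-cycle enzyme argininosuccinate synthase, averaged 14.4, 13.3 and 12.3 CPM, and SLC5A1, the intestinal sodium-glucose transporter, 15, 13.9 and 12.7 CPM. HDAC5, a class IIa histone deacetylase, averaged 25.5, 23.6 and 21.9 CPM, and GPRC5C, an orphan receptor, 31.6, 28.8 and 27 CPM. FOXL1 and the pseudogene AGGF1P2 also came among the 20, with means under 1 CPM at every dose. All 3 libraries at 500 µg/mL lay below the 3 at 20 µg/mL in 678 genes (4.04%).

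**Figure D2:**
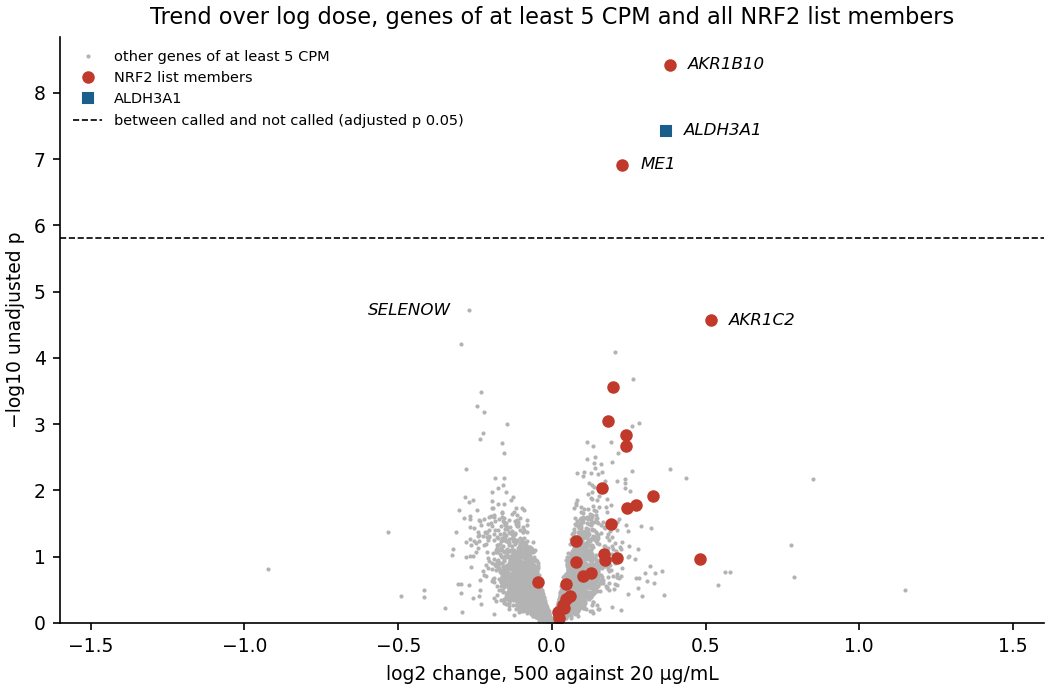
Trend (x axis, log2 change of 500 against 20 µg/mL) and −log10 of the unadjusted p (y axis) for the 10661 genes averaging at least 5 CPM, with all 28 NRF2 list members in red and ALDH3A1 as a blue square. AKR1B10, ALDH3A1 and ME1 lie above the dashed line that separates called from not called genes, and 27 of the 28 red points lie right of 0.

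NRF2 itself was not called. NFE2L2 averaged 132 ± 2.95, 133 ± 9.46 and 131 ± 6.74 CPM at 20, 100 and 500 µg/mL (SD, n = 3 each; trend -0.01 ± 0.06 log2, SE). Its inhibitor KEAP1 averaged 56.7, 57.3 and 59 CPM (trend 0.06 ± 0.07 log2). Of the 28 NRF2 list members, all 28 passed the filter on low counts, 2 were called higher (AKR1B10 and ME1) and none lower. The median trend of the list was 0.171 log2, against -0.001 for all genes tested, and 27 of the 28 estimates were above 0, against 49.3% of all genes. In 13 members the 3 libraries at 500 µg/mL lay above the 3 at 20 µg/mL (4.42% of all genes did so), and in 10 of them also above the 3 at 100 µg/mL (1.16% of all genes). An unadjusted p under 0.05 in the positive direction was found for 12 members (1.56% of all genes). By step, 3 members were called at 500 against 100 µg/mL, and 11 had an unadjusted p under 0.05 in the positive direction (1.25% of all genes). At 100 against 20 µg/mL, 1 did (0.918% of all genes). The estimates above 0 numbered 26 and 16 of 28 (50.6% and 48.7% of all genes). The list's median was 0.120 log2 at 500 against 100 µg/mL and 0.010 log2 at 100 against 20 µg/mL. When 1 library was left out, the list's median trend was 0.12 to 0.205 log2. Members of a list can vary together between libraries, so these counts are not of independent genes.

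Among the carbonyl and quinone reductases, AKR1B10 was called and the others had positive trends. AKR1C1 averaged 16.2, 16 and 19.2 CPM over the doses (trend 0.24 ± 0.10 log2, SE). AKR1C3 averaged 47, 43.8 and 59 CPM (0.33 ± 0.13 log2), with 66.4 CPM in replicate 1 at 500 µg/mL and 54.2 and 56.4 CPM in the others. NQO1 had 513, 480.5 and 477 CPM at 20 µg/mL, 499, 507 and 479 CPM at 100 µg/mL, and 576, 559 and 536 CPM at 500 µg/mL. Its trend was 0.18 ± 0.05 log2 (SE; adjusted p = 0.968, edgeR).

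Glutathione synthesis showed the same order of size. GCLM, the modifier subunit of glutamate-cysteine ligase, whose promoter is printed above, had 72.8, 61.2 and 62.9 CPM at 20 µg/mL, 70.7, 63.8 and 64.6 CPM at 100 µg/mL, and 79.5, 79.1 and 74.1 CPM at 500 µg/mL (trend 0.24 ± 0.07 log2, SE). Replicate 1 was the highest at each dose. The catalytic subunit GCLC averaged 95.8, 93.1 and 111 CPM (0.21 ± 0.13 log2), and the cystine importer SLC7A11 134, 139 and 154 CPM (0.19 ± 0.09 log2). Glutathione reductase GSR averaged 63.6, 63.8 and 67.1 CPM. None of these 4 genes was called in the trend.

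Of the NADPH-supplying enzymes, only ME1 was called. PGD, a dehydrogenase of the pentose phosphate pathway, averaged 258, 258 and 266 CPM (trend 0.05 ± 0.04 log2, SE). The transketolase TKT and the transaldolase TALDO1 had trends of 0.08 ± 0.04 and 0.02 ± 0.05 log2.

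In the thioredoxin branch no member was called. Thioredoxin reductase TXNRD1 had 361, 328 and 313 CPM at 20 µg/mL and 426, 361 and 342 CPM at 500 µg/mL, so the doses overlapped. Thioredoxin TXN, peroxiredoxin PRDX1 and sulfiredoxin SRXN1 had trends of 0.04 ± 0.07, 0.02 ± 0.11 and 0.13 ± 0.09 log2 (SE). HMOX1, which degrades heme, had 11.7, 9.81 and 11.6 CPM at 20 µg/mL, 12.1, 9.58 and 9.93 CPM at 100 µg/mL, and 15.1, 12.7 and 12.2 CPM at 500 µg/mL (trend 0.27 ± 0.11 log2, SE; adjusted p = 1, edgeR).

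The ferritin light chain FTL was an exception in its steps. It averaged 2325 ± 159, 2729.7 ± 236 and 2745 ± 93.7 CPM (SD, n = 3 each), with a difference of 0.23 ± 0.07 log2 at 100 against 20 µg/mL and 0.01 ± 0.07 log2 at 500 against 100 µg/mL (SE). The heavy chain FTH1 had a trend of 0.04 ± 0.06 log2. Microsomal epoxide hydrolase EPHX1 averaged 115, 115 and 128 CPM (0.16 ± 0.06 log2), and UDP-glucose dehydrogenase UGDH 95.5, 96.9 and 102 CPM. The exporters ABCC2 and ABCC3 averaged 1.46, 1.54 and 2.03 CPM and 485, 485 and 497 CPM. The growth inhibitor OSGIN1 had a trend of 0.17 ± 0.10 log2, and the taurine importer SLC6A6, with -0.05 ± 0.04 log2, was the only member below 0.

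**Figure D3:**
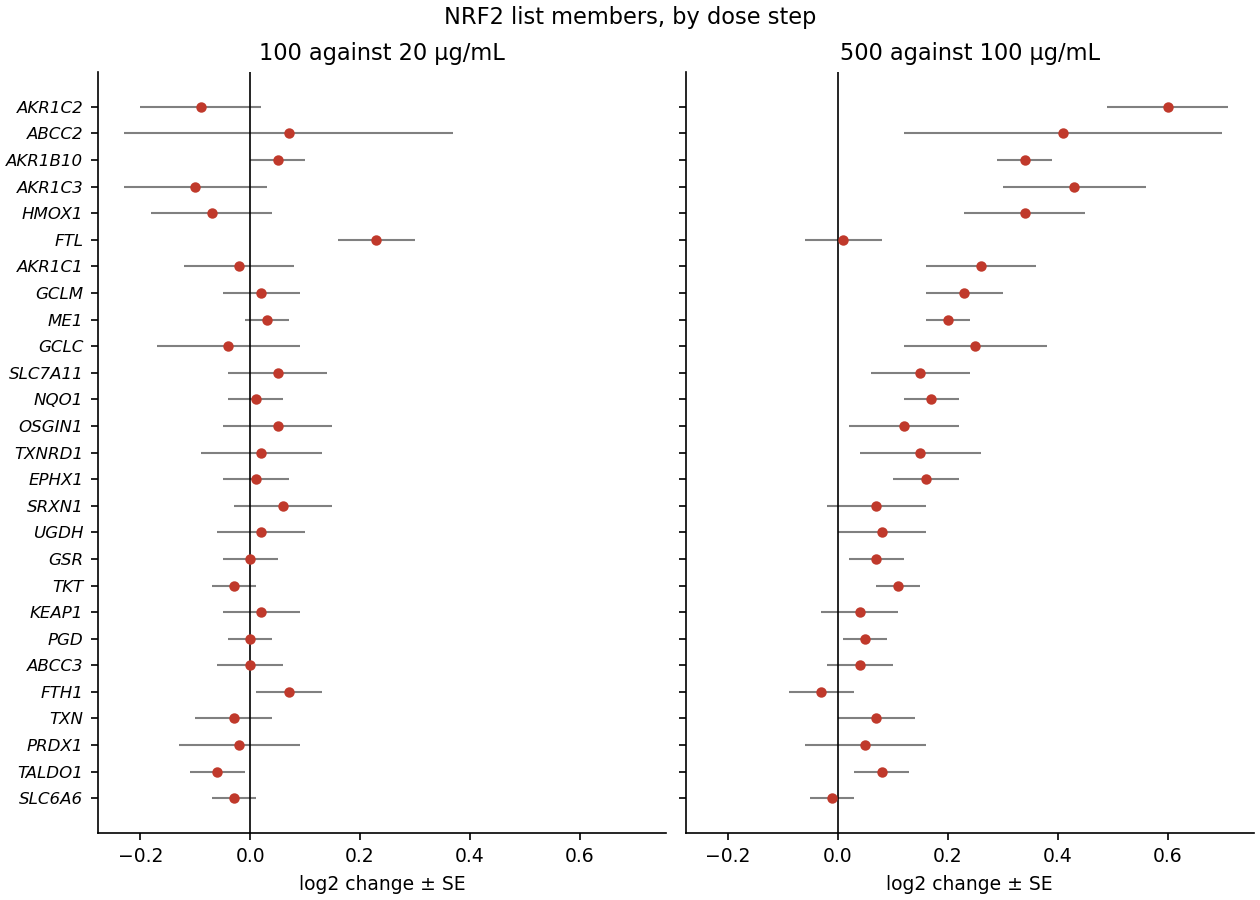
Log2 difference ± SE (x axis) of 27 of the 28 NRF2 list members (rows, ordered by trend) at 100 against 20 µg/mL on the left and at 500 against 100 µg/mL on the right. The left panel scatters around 0 except for FTL at 0.23, and 25 of the 27 estimates in the right panel are above 0.

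The aryl hydrocarbon receptor list held 12 genes, of which 11 passed the filter. ALDH3A1 was called higher and no other member was. CYP1A1, the receptor's most responsive target, had 0.866, 0.511 and 0.89 CPM at 20 µg/mL, 0.847, 0.931 and 0.893 CPM at 100 µg/mL, and 0.55, 0.841 and 1.3 CPM at 500 µg/mL. The doses overlapped, and its trend of 0.25 ± 0.44 log2 had a 95% confidence interval of -0.64 to 1.13. This interval shares the spread of all 60 libraries, among them the vehicle libraries with 2.1 ± 2.4 CPM (SD, n = 3). CYP1B1 averaged 54.6, 53.5 and 52.7 CPM, the repressor AHRR 6.2, 6.66 and 6.58 CPM and TIPARP, another feedback repressor, 92.6, 93.4 and 94.8 CPM. The receptor AHR averaged 115, 115 and 118 CPM and its partner ARNT 36.8, 35.8 and 36.2 CPM. ABCG2, a drug exporter, averaged 80.1, 83.2 and 89.2 CPM (trend 0.15 ± 0.06 log2, SE; adjusted p = 1, edgeR). An unadjusted p under 0.05 in the positive direction was found for 4 of the 11 members (1.56% of all genes). These were ALDH3A1, NQO1, UGT1A6 and ABCG2, and NQO1 stood on the NRF2 list too. The list's median trend was 0.087 log2, and 0.029 without replicate 2 at 20 µg/mL, 0.035 without replicate 3 at 500 µg/mL and 0.052 without replicate 3 at 20 µg/mL. For 500 against the mean of both lower doses it was 0.036.

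The list of PXR and CAR targets, the nuclear receptors that sense drugs, held 17 genes, of which 9 passed the filter, with a median trend of -0.019 log2 (-0.038 to 0.039 when 1 library was left out) and no call. CYP3A5 averaged 105, 99.6 and 97.7 CPM, and the drug efflux pump ABCB1 0.65, 0.815 and 0.883 CPM (trend 0.44 ± 0.27 log2, SE).

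Of the 37 gene lists in all, 35 held no called member. Apart from the NRF2, aryl hydrocarbon receptor, enterocyte and mitochondrially encoded lists, the medians of all 33 others lay within 0.06 of 0 on the log2 scale, a bound chosen after the medians were seen. Leaving out 1 library took 6 of these 33 beyond it at least once, to 0.115 from 0 at most. The cholesterol synthesis list had 23 of 25 estimates below 0 and a median of -0.057 (-0.115 without replicate 1 at 500 µg/mL, -0.107 without replicate 3 at 20 µg/mL, and -0.017, -0.023 and -0.038 without replicate 3 at 500, replicate 1 at 20 and replicate 2 at 500 µg/mL), with LSS at -0.15 ± 0.04 (SE) and the synthase HMGCS1 at -0.07 ± 0.09. The cytosolic ribosomal protein list had 61 of 74 estimates below 0 and a median of -0.046, with -0.089 (without replicate 1 at 500 µg/mL) to -0.010 (without replicate 2 at 500 µg/mL) when 1 library was left out. DNA replication genes had 27 of 30 above 0 and a median of 0.041, and ribosome biogenesis genes 23 of 25 above 0 and a median of 0.034 (0.015 without replicate 1 at 500 µg/mL). Members of such lists vary together between libraries, and none of these genes was called. Enterocyte and brush border genes had a median of -0.074.

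The 13 mitochondrially encoded genes had a median trend of 0.101 log2, which came from 0.189 at 100 against 20 µg/mL and -0.078 at 500 against 100 µg/mL, with no call. The median was 0.168 without replicate 1 at 500 µg/mL and 0.039 without replicate 3 at 500 µg/mL, and -0.003 for 500 against the mean of both lower doses. The mitochondrial share of all counts was 7.54% to 8.11% at 20 µg/mL, 8.14% to 9.26% at 100 µg/mL and 7.51% to 8.98% at 500 µg/mL. The highest of these shares fell in replicate 3 at 100 µg/mL.

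**Figure D4:**
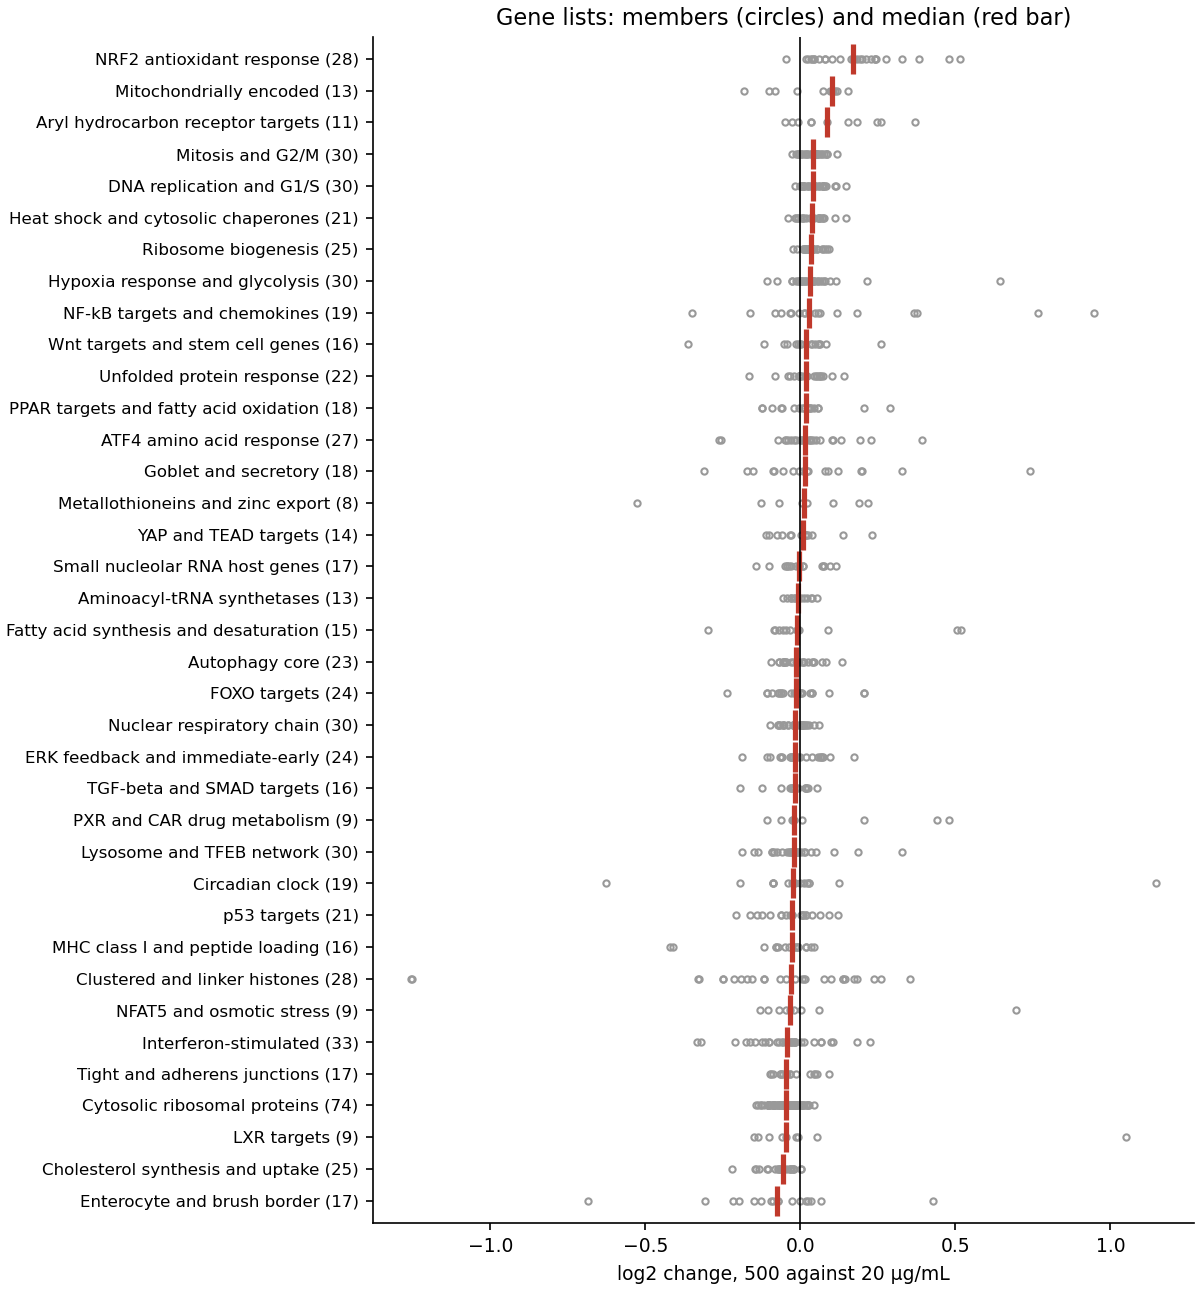
Trend (x axis, log2 change of 500 against 20 µg/mL) of the members (circles) and the median (red bar) of each of the 37 gene lists (rows, with the number of members tested). The NRF2 list has the highest median, 0.171, here and in 8 of 9 fits that left out 1 library; the mitochondrially encoded list at 0.101 and the aryl hydrocarbon receptor list at 0.087 come next, in an order that changes when 1 library is left out.

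A further set of 26 marker genes of stress, growth and differentiation was reported whatever its values. Of these, ANGPTL4 was too low to test, AKR1B10 and ALDH3A1 were called, and 23 were not called. The oncogene MYC averaged 279 ± 10.1, 281 ± 13.1 and 290.4 ± 18.9 CPM over the doses (SD, n = 3 each), and cyclin D1 (CCND1) 123 ± 1.87, 125 ± 1.16 and 127 ± 4.09 CPM. The cell-cycle inhibitor CDKN1A averaged 14.4, 15.3 and 13.5 CPM. HSPA5, the endoplasmic reticulum chaperone, had 433, 420.1 and 413 CPM at 20 µg/mL, 447, 426 and 435 CPM at 100 µg/mL, and 475, 454 and 465 CPM at 500 µg/mL. Its 3 libraries at the highest dose lay above the other 6, and its trend was 0.14 ± 0.05 log2 (SE; adjusted p = 1, edgeR). The stress factor DDIT3 and the asparagine synthetase ASNS had trends of 0.10 ± 0.19 and -0.05 ± 0.06 log2.

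The chemokine CXCL8 averaged 6.27, 6.21 and 8.07 CPM, with the highest dose above the other 6 libraries (trend 0.37 ± 0.42 log2, SE; adjusted p = 1, edgeR). The SE of CXCL8 shares the spread of all 60 libraries and does not measure that of the dose series alone. In Poria its SDs were 7.71, 13.2 and 21.2 CPM at 20, 100 and 500 µg/mL, against 0.926, 0.39 and 0.179 CPM in Angelicae. CXCL8 was called under no alternative. The glucose-responsive TXNIP averaged 51.3, 53.5 and 54.8 CPM, and PDK4, an inhibitory kinase of pyruvate dehydrogenase, 5.67, 5.79 and 6.56 CPM. The secretory genes REG4 and MUC2 had trends of 0.02 ± 0.07 and 0.12 ± 0.13 log2, and the stem cell marker LGR5 0.06 ± 0.07.

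The median SE of the trend was 0.092 log2 over all genes and 0.066 log2 over the 10661 genes of at least 5 CPM. For 91.6% of these 10661 genes the 95% interval of the trend lay inside 0.32 log2 in either direction, and for 99.3% inside 1.5-fold. Library totals were 24809889 to 29720463 counts, with the lowest in replicate 2 at 500 µg/mL. Among the genes of at least 5 CPM, 20.9% of the spread among the 9 libraries lay along dose and 41% along replicate number. The rest was 38.1%. Any division of 9 libraries into 3 groups takes some share, and how much of the 20.9% belongs to dose was not tested. Of 13 colon epithelium markers, 12 averaged at least 1 CPM and CDX1 did not. The summed colon markers were 12579 to 13212 CPM across the 9 libraries, and the summed fibroblast, endothelium and lung markers reached 3.22 CPM at most in any library. The leukocyte sum of 1343 to 1565 CPM was almost all LYZ. CD68, CD14 and ITGAM averaged 6.83, 3.46 and 1.35 CPM, and the 6 other members averaged under 1 CPM, with CD3E, CD3D and MS4A1 at 0. The hepatocyte sum of 395 to 462 CPM was almost all SERPINA1 and APOH, with ALB at 0.

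Paeoniae Radix shares the leading digit of its sample codes with Angelicae and had 2 libraries per dose. The trend over dose differed between Angelicae and Paeoniae in 0 genes by edgeR (410 at an unadjusted p under 0.05, 2.45%) and 0 by DESeq2. AKR1B10 had a trend of 0.38 ± 0.05 log2 in Angelicae and 0.44 ± 0.06 in Paeoniae (SE), a difference of -0.06 with a 95% interval of -0.22 to 0.11. For ALDH3A1 the trends were 0.37 ± 0.06 in Angelicae and 0.55 ± 0.07 in Paeoniae, with an interval of the difference of -0.36 to -0.01. ME1 had 0.23 ± 0.04 in Angelicae and 0.17 ± 0.04 in Paeoniae, and AKR1C2 had 0.52 ± 0.11 in Angelicae and 0.76 ± 0.13 in Paeoniae (interval of the difference -0.59 to 0.11). The median trend of the NRF2 list was 0.171 in Angelicae, where 2 members rose, and 0.225 in Paeoniae, where 3 rose (0.0239% of all genes rose in Paeoniae). Against the mean trend of the other 5 extracts together, edgeR again called 0 genes (426 at an unadjusted p under 0.05, 2.54%). DESeq2 called 1, ENSG00000273217, with a higher trend in Angelicae. That gene averaged under 1 CPM and was also called by DESeq2 in the trend and at 500 against 100 µg/mL. It is named here after its values were seen.

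Over the same doses, the Poria trend differed from that of Angelicae in 43 genes (0.256%), 18 with a higher (0.107%) and 25 with a lower trend in Angelicae (0.149%). Leaving out 1 library gave 21 to 43 genes, the lowest count without replicate 3 of Angelicae at 500 µg/mL. AKR1B10 averaged 99.9, 103 and 130.3 CPM in Angelicae at 20, 100 and 500 µg/mL and 117, 139.6 and 260.3 CPM in Poria, a difference of trends of -0.77 ± 0.07 log2 (SE; adjusted p = 1.89e-09, edgeR). Of the 28 NRF2 list members, 8 had a lower trend in Angelicae and none a higher one: AKR1B10, AKR1C1, AKR1C2, ME1, NQO1, GCLM, SLC7A11 and TKT. The list's median trend was 0.171 in Angelicae and 0.434 in Poria, where 23 of the 28 rose (3.21% of all genes rose in Poria) and SLC6A6 fell. The secretory gene REG4 averaged 28.8, 30.6 and 29.3 CPM in Angelicae and 33.5, 28.3 and 22.4 CPM in Poria (difference of trends 0.60 ± 0.10 log2, SE; adjusted p = 0.00135, edgeR).

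Glycyrrhizae, the licorice extract, differed from Angelicae in the trend of 6 genes (0.0358%), REG4 among them, and in no NRF2 list member. Leaving out 1 library gave 4 to 12 genes, and DESeq2 gave 22. The NRF2 list's median trend was 0.171 in Angelicae and 0.212 in Glycyrrhizae, where 10 of the 28 rose (1.83% of all genes rose in Glycyrrhizae). Atractylodis and Ginseng had medians of 0.043 and 0.058 and no called member. AKR1B10 had trends of 0.38 ± 0.05 log2 in Angelicae and 0.46 ± 0.05 in Glycyrrhizae (SE). ALDH3A1 had 0.37 ± 0.06 in Angelicae and 0.72 ± 0.06 in Glycyrrhizae, a difference of -0.35 ± 0.08 that did not pass (adjusted p = 0.089, edgeR). The comparisons with Poria and Glycyrrhizae were added after first results had been seen. All of these comparisons share the 9 Angelicae libraries.

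**Figure D5:**
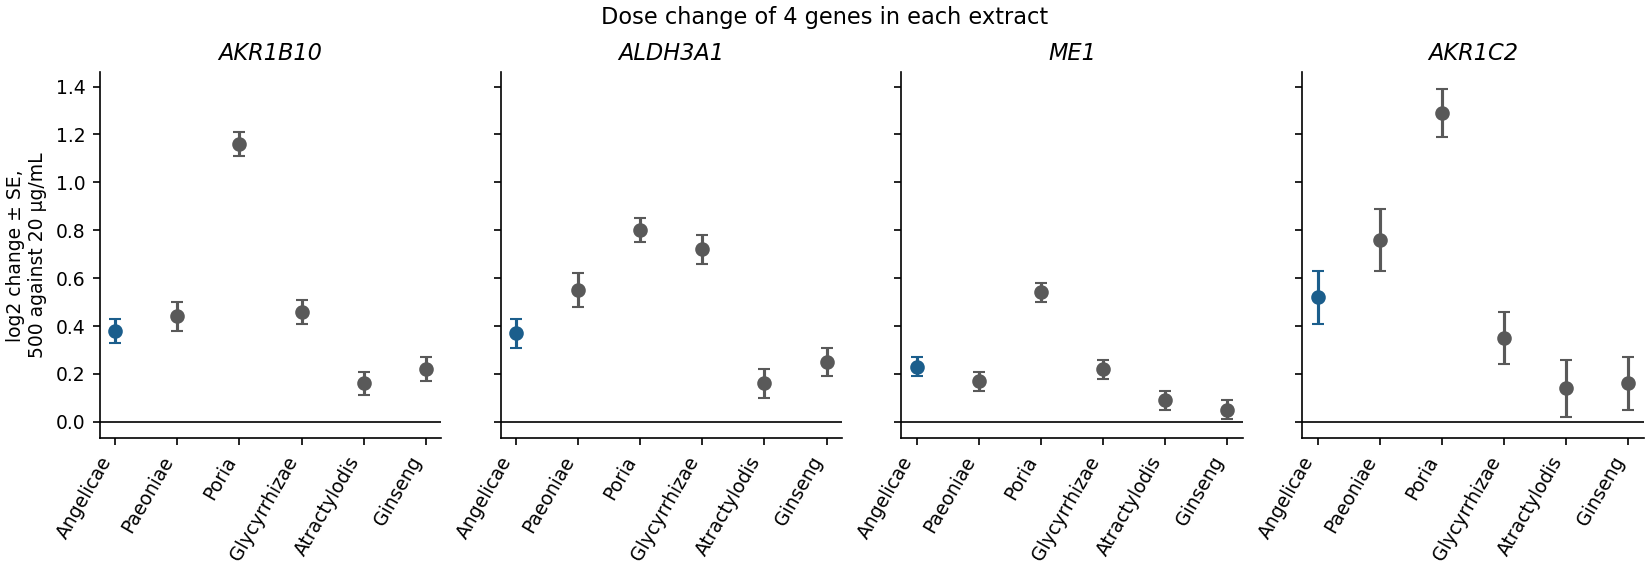
Log2 change of 500 against 20 µg/mL ± SE (y axis) of AKR1B10, ALDH3A1, ME1 and AKR1C2 in each of the 6 extracts (x axis, Angelicae in blue). Poria is highest in all 4 panels, with 1.16 for AKR1B10 against 0.38 in Angelicae.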

How the data were processed

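RNA of HT29 cells was sequenced as 100 bp paired-end reads from a strand-specific mRNA library, per the labels' protocols. The deposited table holds expected counts per gene from RSEM 1.3.3 after Trim Galore 0.6.5 and STAR 2.7.3a on hg38, per the submitters' processing notes; for settings and annotation, nothing was given in the sources. Of the deposited expected count values above 0, 24.2% were not whole, and they were rounded. The table has 213 further columns, which were not used. The vehicle is given as 0.1% DMSO in the labels and 2% in the series text.

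Genes were kept with filterByExpr (minimum count 10, minimum total 15), which left 16767. TMM scaling and edgeR 4.0.16 quasi-likelihood fits (R 4.3.3) used all 60 libraries with 21 group means, so the spread was shared over 39 residual degrees of freedom. Contrasts over the 3 Angelicae means gave the trend, the curvature and both steps. CPM are TMM-scaled. The trend fit was also run on simulated counts with changes of known size, and its outcome is not given here. DESeq2 1.42.0, RLE scaling, no filter, no vehicle libraries, the 9 libraries alone, replicate blocks, other dose shapes and leaving out each library were the alternatives. The genes named are the 20 with the smallest p (since fewer than 20 were called), called list members, 26 genes reported whatever their values, and the members of the NRF2, aryl hydrocarbon receptor and PXR lists; a few of these genes are not reported here. The lists and the series itself were chosen with earlier results of these data known. Gene positions are from GENCODE 29, and promoter sequences from RefSeq (GRCh38.p14).

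Replicates of a dose were compared in 9 pairs: the median chi-square per gene was 0.756 to 1.351, against 0.455 for counting noise alone, so no library was counted as a copy of another. Same-numbered libraries at 500 and 100 µg/mL deviated together (r = 0.44, 0.20 and 0.38 over genes for replicates 1, 2 and 3), which by a threshold of 0.1 pairs them for that step. The main fit has no replicate block, so its p-values for that step are unpaired. At 500 and 20 µg/mL the values were 0.31, -0.10 and 0.32, so the trend was not treated as paired. Counting intervals would cover counting error only, and none are given.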

Additional observations from a re-analysis of the deposited data

Results flagged for a closer look

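The trend over dose differed by edgeR's quasi-likelihood test between Angelicae and Poria for 9 of the named genes, which is why they are listed. In Angelicae the trend was lower for AKR1B10 (difference -0.77 ± 0.07 log2, SE, adjusted p = 1.89e-09), AKR1C2 (-0.77 ± 0.15, adjusted p = 0.00781), GCLM (-0.47 ± 0.10, adjusted p = 0.0196), ALDH3A1 (-0.43 ± 0.08, adjusted p = 0.0041), ASNS (-0.38 ± 0.08, adjusted p = 0.0105), NQO1 (-0.32 ± 0.07, adjusted p = 0.0377) and ME1 (-0.31 ± 0.05, adjusted p = 0.00135). It was higher for REG4 (0.60 ± 0.10, adjusted p = 0.00135) and TXNIP (0.53 ± 0.10, adjusted p = 0.00575). For REG4 the trend was 0.02 log2 in Angelicae and -0.58 in Poria, and for TXNIP 0.09 in Angelicae and -0.44 in Poria.

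REG4 also had a higher trend in Angelicae than in Glycyrrhizae (0.64 ± 0.10 log2, SE, adjusted p = 0.00063, edgeR), with 0.02 in Angelicae and -0.61 in Glycyrrhizae. Each dose group had 3 libraries or fewer, so none was examined for single libraries far from the others.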

How the results depend on the processing

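AKR1B10 was called in the trend under all 11 alternatives and all 9 fits that left out an Angelicae library (0.36 to 0.42 log2). ALDH3A1 lost its call only in the 9-library slope over log dose (adjusted p = 0.0583), over an adjusted p range of 6.53e-06 to 0.0583. The count of trend calls was 2 in the 9 libraries alone and 2 in their slope over log dose. It was 6 with DESeq2, 5 for a slope over linear dose and 88 of 34237 genes tested without the filter. Of those 88, 87 passed the main filter, 41 averaged under 1 CPM and 7 were NRF2 list members; the cause was not tested. Without the filter the curvature gave 67 calls, the upper step 72, the lower step 78, and the differences from Paeoniae, the mean of the other 5 extracts, Poria and Glycyrrhizae 64, 50, 190 and 141. DESeq2 gave 1 for the mean of the other 5 and 22 for Glycyrrhizae. In the 9 libraries alone each step gave 1 call.

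With the replicate number as a block, the trend gave 5 calls of 16767 genes tested in the 60-library fit. In the 9 libraries it gave 17 of 15622, 8 of them NRF2 list members. The best-correlated library of another dose had the same number in 15 of 18 comparisons, a hint from the data. The middle number of the sample codes is the replicate number, and the codes do not say whether same-numbered libraries shared a culture or a run. The block in the 9 libraries gave 2 calls for the curvature and 2 for the lower step. With the block, Poria gave 76 calls in the 60 libraries and 152 in the libraries of the contrast, and Glycyrrhizae 41 and 74. In the paired upper step the 60-library block changed no call.

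Leaving out 1 library gave 2 to 4 trend calls, 0 to 4 in the upper step (2 without replicate 1 at 500 µg/mL, replicate 1 or replicate 2 at 100 µg/mL, and 0 without replicate 3 at 100 µg/mL), 0 to 0 for the lower step, the curvature and the mean of the other 5, 0 to 1 for Paeoniae (1 without replicate 2 of Paeoniae or replicate 3 of Angelicae at 500 µg/mL), 21 to 43 for Poria and 4 to 12 for Glycyrrhizae. Poria fell to 21, 26, 22, 24 and 28 without replicate 3 of Angelicae at 500, replicate 1 of Angelicae at 20, replicates 2 and 3 of Poria at 20 and replicate 3 of Poria at 500 µg/mL. Glycyrrhizae gave 12 without its replicate 1 at 20 or replicate 2 at 500 µg/mL, 10 without replicate 2 of Angelicae at 20 µg/mL, and 4 without replicate 1 of Angelicae at 20 or replicate 3 at 500 µg/mL.

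No called gene turned sign. Of the 37 list medians, 7 turned sign under an alternative (mitochondrially encoded to -0.003) and 15 when 1 library was left out. Among genes that were not called, DDIT3 was -0.002 and -0.001 log2 for 500 against the mean of 100 and 20 µg/mL (60 and 9 libraries, chosen after seeing the data), and REG4 -0.020 in both and -0.009 for the linear slope. Leaving out 1 library turned CYP1A1 (-0.13 to 0.515), HMGCS1 (-0.163 to 0.03), TIPARP (-0.003 to 0.079) and REG4 (-0.028 to 0.071).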
